A study of Mus musculus with 8 samples.

Results

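The 10 pattern recognition genes described here were measured in mouse tumour neutrophils: the Toll-like receptors Tlr1, Tlr2, Tlr4, Tlr6, Tlr7, Tlr8, Tlr9 and Tlr13, together with the lipopolysaccharide co-receptors Cd14 and Ly96, the gene of MD-2. They were taken by gene name from the deposited count table, and all 10 were found among its 54532 genes. The fractions compared were ICAM1high neutrophils and ICAM1low neutrophils, with 4 libraries each, sorted by flow cytometry from dissociated mammary fat pad tumours of untreated Balb/c mice. The tumours grew from 2208L mouse mammary tumour cells and were taken at a diameter of 1 cm. ICAM1 (CD54) is an adhesion molecule that binds leukocyte integrins. Both fractions come from the same tumour model, so neither is a tumour-free control, and the sources used here do not name the antibodies that defined neutrophils. The comparison asks how the ICAM1high fraction differs from the ICAM1low fraction within the tumour.

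Toll-like receptors are membrane proteins that recognise conserved microbial molecules and products of damaged cells. TLR4 senses bacterial lipopolysaccharide at the cell surface, where CD14 hands over the ligand and MD-2 forms the binding pocket, while TLR2 pairs with TLR1 or TLR6 to sense lipoproteins. TLR7, TLR8, TLR9 and TLR13 sit in endosomes and sense nucleic acids: RNA for TLR7 and TLR8, CpG DNA for TLR9 and bacterial ribosomal RNA for TLR13. Most of these receptors signal through the adaptor MyD88, and neutrophils are known for responding through TLR2 and TLR4.

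Library totals ran from 10328575 to 22751975 counts. The sorted marker followed its label, with Icam1 at 1299.7 to 1733 CPM (counts-per-million of the library, scaled by TMM) in ICAM1high and 607 to 1085 CPM in ICAM1low. Neutrophil markers, 18 genes, were present in both fractions, with a summed level of 11347 to 14877 CPM in ICAM1high and 47902 to 91995 CPM in ICAM1low, and all 18 passed as lower in ICAM1high. Macrophage and monocyte markers, 20 genes, summed to 11303 to 18310 CPM in ICAM1high and 1279 to 1946 CPM in ICAM1low, and 18 of the 20 passed as higher. In bulk libraries fewer cells of a type and less RNA per cell cannot be told apart. ICAM1high replicate 1 and ICAM1low replicate 4 held more counts in genes shorter than 1000 bases than the other libraries of their fraction: 5.79% against 3.41 to 3.57% in ICAM1high, and 11.1% against 4.61 to 6.32% in ICAM1low. Results that lean on these libraries are given with and without them, a choice made after seeing the data.

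The 10 genes divided by direction. Tlr7 and Tlr9 rose in ICAM1high, Cd14, Tlr1, Tlr2, Tlr4, Tlr6 and Tlr13 fell, and Tlr8 and Ly96 did not pass the test. A call means an adjusted p under 0.05 from edgeR's quasi-likelihood test over all 14051 genes tested, among which all 10 passed the filter on low counts. Of the 10 genes 8 were called, where 42.1% of all genes tested were called; 2 were called higher, where 22.6% of all genes were, and 6 lower, where 19.6% were. All 8 differed at least 2-fold, where 27.2% of all genes were called with such a difference. In 7 of the 10 the CPM of the fractions did not overlap, as in 41.5% of all genes tested. The median log2 fold change of ICAM1high over ICAM1low was -1.08 over the 10 genes and 0.08 over all genes tested. Scaling by library totals alone raised the median of all genes by 0.68 on the log2 scale, and fold changes below are relative to TMM scaling. Under library totals Cd14, Tlr1, Tlr2 and Tlr6 still fell and Tlr7 and Tlr9 still rose, whereas Tlr4 and Tlr13 no longer passed.

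**Figure D1:**
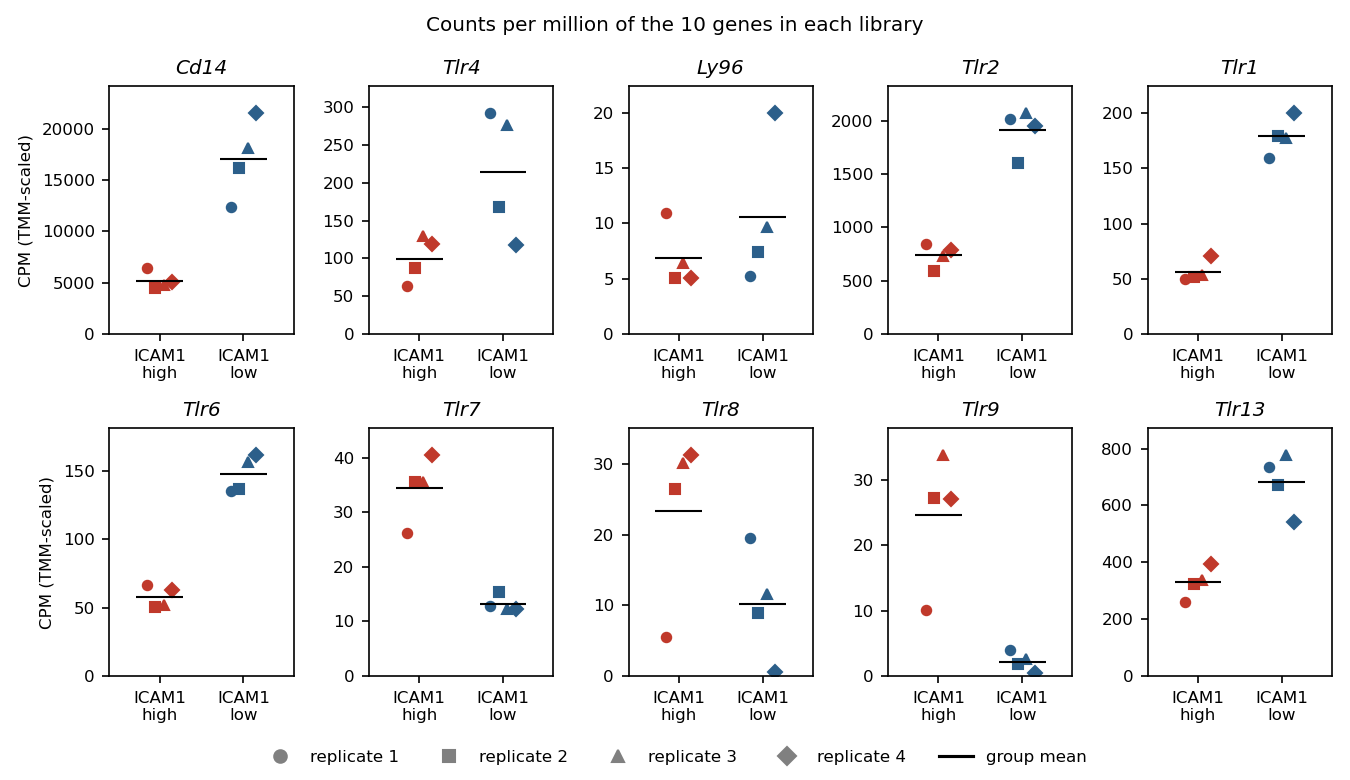
CPM (TMM-scaled, linear axis from 0) of each gene in the 4 ICAM1high libraries (red, left) and the 4 ICAM1low libraries (blue, right), with a marker shape per replicate number and a line at the group mean. Cd14, Tlr1, Tlr2, Tlr6 and Tlr13 lie lower in every ICAM1high library, Tlr7 and Tlr9 lie higher, and Tlr4, Tlr8 and Ly96 overlap.

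The lipopolysaccharide receptor was measured through 3 genes. Cd14 (ENSMUSG00000051439, mm10 chromosome 18, 36725074 to 36726736, minus strand), the co-receptor that delivers lipopolysaccharide, is a gene of 2 exons and was among the most counted genes of every library. Its count was ranked between 4 and 6 among all genes in ICAM1high libraries and between 3 and 5 in ICAM1low libraries. ICAM1high replicates 1 to 4 held 6482, 4504, 4732 and 5029.8 CPM of Cd14, and ICAM1low replicates 1 to 4 held 12396, 16150.1, 18166 and 21588 CPM. The fractions did not overlap, and Cd14 took 0.603 to 0.764% of all counts in ICAM1high libraries and 1.01 to 1.52% in ICAM1low libraries. The log2 fold change was -1.72 (SE 0.21, adjusted p = 0.000147), with all 4 ICAM1high libraries below all 4 ICAM1low libraries.

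Tlr4 (ENSMUSG00000039005, chromosome 4, 66827584 to 66930284, plus strand), the signalling receptor for lipopolysaccharide, has 3 exons in its longest coding transcript, all of them coding. It was at 63.0, 87.2, 129 and 119 CPM in ICAM1high replicates 1 to 4 and at 293, 168, 276 and 118 CPM in ICAM1low replicates 1 to 4. ICAM1low replicate 4 lay within the ICAM1high range, while the other ICAM1low libraries lay above it. Tlr4 fell by 1.10 on the log2 scale (SE 0.32, adjusted p = 0.0171), with all 4 ICAM1high libraries below 3 of the 4 ICAM1low libraries. Without ICAM1high replicate 1 and ICAM1low replicate 4 the log2 fold change was -1.17 (adjusted p = 0.00163). Without ICAM1low replicate 3 the adjusted p was 0.0544, and under library totals it was 0.301 at -0.42. With a block by replicate number Tlr4 did not pass either (-1.06, adjusted p = 0.0658). In replicates 1 and 2 alone Tlr4 was at -1.62 (adjusted p = 0.0107), and in replicates 3 and 4 alone at -0.71 (adjusted p = 0.237).

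Ly96 (ENSMUSG00000025779, chromosome 1, 16688051 to 16709611, plus strand) encodes MD-2, the secreted partner that binds lipopolysaccharide on TLR4, and is the shortest of the 10 genes at 1021 bases. Ly96 was at 10.9, 5.07, 6.47 and 5.03 CPM in ICAM1high replicates 1 to 4 and at 5.21, 7.40, 9.66 and 20.03 CPM in ICAM1low replicates 1 to 4. The highest library of each fraction was the one with the largest share of counts in short genes, and the fractions overlapped. The log2 fold change was -0.62 with a 95% interval of -1.54 to 0.30 (adjusted p = 0.257), so a change in either direction was not detectable with these libraries. It was -0.46 (adjusted p = 0.166) without those 2 libraries and -0.11 (adjusted p = 0.806) without ICAM1low replicate 4 alone, and the part of the short-gene share in it was not tested. In replicates 1 and 2 alone Ly96 was at 0.34 (adjusted p = 0.603), and in replicates 3 and 4 alone at -1.42 (adjusted p = 0.0739).

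The lipoprotein receptor genes fell together. Tlr2 (ENSMUSG00000027995, chromosome 3, 83836272 to 83841767, minus strand), the common chain of these receptors with a single coding exon, was at 842, 589, 732 and 785 CPM in ICAM1high replicates 1 to 4. ICAM1low replicates 1 to 4 held Tlr2 at 2015, 1606, 2075 and 1952 CPM. Every ICAM1high library lay below every ICAM1low library, and the log2 fold change was -1.38 (SE 0.16, adjusted p = 0.000141).

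Tlr1 (ENSMUSG00000044827, chromosome 5, 64924679 to 64933563, minus strand) and Tlr6 (ENSMUSG00000051498, chromosome 5, 64952031 to 64960097, minus strand) encode the alternative partners of TLR2, lie side by side on the same strand and have a single coding exon each. Tlr1 was at 49.7, 51.9, 53.2 and 70.3 CPM in ICAM1high replicates 1 to 4 and at 159, 179.8, 178 and 201 CPM in ICAM1low replicates 1 to 4. Tlr6 was at 66.4, 50.3, 52.0 and 62.5 CPM in ICAM1high replicates 1 to 4 and at 135, 137, 157 and 162 CPM in ICAM1low replicates 1 to 4. Neither gene overlapped between the fractions. The log2 fold change was -1.67 (SE 0.16, adjusted p = 3.84e-05) for Tlr1 and -1.35 (SE 0.15, adjusted p = 9.9e-05) for Tlr6.

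Counts of Tlr1 and Tlr6 are not fully separate measurements. Of the windows of 50 bases in the longest coding transcript of Tlr1, 15.3% occurred without mismatch in a transcript of another gene, all of them in Tlr6. For Tlr6 the share was 12.6%, nearly all from Tlr1, and it was 0% for each of the other 8 genes. The sources used here give neither the read length nor the treatment of reads with several matches. The longest stretch that the genes share, 229 bases of coding sequence on the minus strand, lies at chr5:64925537-64925765 in Tlr1 and at chr5:64953828-64954056 in Tlr6 (GRCm38, the build called mm10). It is shown because no read inside it could be assigned to one gene by sequence.
Tlr1 and Tlr6: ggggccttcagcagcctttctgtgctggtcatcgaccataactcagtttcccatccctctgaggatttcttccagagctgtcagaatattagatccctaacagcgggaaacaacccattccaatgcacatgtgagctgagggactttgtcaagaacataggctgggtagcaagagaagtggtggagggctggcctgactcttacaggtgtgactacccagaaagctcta

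The endosomal receptors moved in opposite directions. Tlr9 (ENSMUSG00000045322, chromosome 9, 106222598 to 106226883, plus strand), the sensor of CpG DNA with 2 exons, was at 10.1, 27.3, 33.9 and 27.1 CPM in ICAM1high replicates 1 to 4. In ICAM1low replicates 1 to 4 it was at 4.04, 1.77, 2.59 and 0.437 CPM, the last from 7 counts. Both fractions were lowest in the libraries with the most counts in short genes, yet the fractions did not overlap. Tlr9 rose by 3.48 on the log2 scale (SE 0.56, adjusted p = 0.000807), an 11.2-fold difference and the largest of the 10 genes. Without ICAM1high replicate 1 and ICAM1low replicate 4 the log2 fold change was 3.38 (adjusted p = 8.52e-06). It was 2.69 in replicates 1 and 2 alone and 4.28 in replicates 3 and 4 alone.

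Tlr7 (ENSMUSG00000044583, chromosome X, 167304929 to 167330558, minus strand), a sensor of single-stranded RNA, was at 26.2, 35.5, 35.6 and 40.6 CPM in ICAM1high replicates 1 to 4. The ICAM1low replicates 1 to 4 were at 12.8, 15.3, 12.4 and 12.2 CPM, within a narrow range and below every ICAM1high library. Tlr7 rose by 1.38 on the log2 scale (SE 0.18, adjusted p = 0.000245).

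Tlr8 (ENSMUSG00000040522, chromosome X, 167242696 to 167264329, minus strand), the neighbour of Tlr7 on the same strand and best known as an RNA sensor in humans, varied most within the fractions. It was at 5.47, 26.4, 30.1 and 31.3 CPM in ICAM1high replicates 1 to 4 and at 19.6, 8.99, 11.7 and 0.562 CPM in ICAM1low replicates 1 to 4, the last from 9 counts. The lowest library of each fraction was again the one with the largest share of counts in short genes, and ICAM1high replicate 1 lay below 3 of the ICAM1low libraries. With all libraries the log2 fold change was 1.19 with a 95% interval of -0.47 to 2.86 (adjusted p = 0.225). Without ICAM1high replicate 1 and ICAM1low replicate 4, the lowest Tlr8 library of each fraction, it was 1.10 (adjusted p = 0.00526). Tlr8 passed in this 1 of 21 alternatives alone, and leaving out the lowest libraries narrows the spread by itself. Without ICAM1low replicate 1 the log2 fold change was 1.72 (adjusted p = 0.117). In replicates 1 and 2 alone Tlr8 was at 0.16 (adjusted p = 0.866), and in replicates 3 and 4 alone at 2.29 (adjusted p = 0.174). The part of the short-gene share in these values was not tested.

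Tlr13 (ENSMUSG00000033777, chromosome X, 106143204 to 106160493, plus strand), a mouse receptor for bacterial ribosomal RNA, was the most counted of the endosomal receptors. It was at 261, 324, 338 and 395 CPM in ICAM1high replicates 1 to 4 and at 735, 673, 779 and 543 CPM in ICAM1low replicates 1 to 4. Unlike Tlr7 and Tlr9 it lay lower in every ICAM1high library. Tlr13 fell by 1.05 on the log2 scale (SE 0.18, adjusted p = 0.00104), but under library totals the log2 fold change was -0.37 (adjusted p = 0.141).

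Tlr7 and Tlr9 are also transcribed in plasmacytoid dendritic cells and B cells. Of 10 B cell markers 3 had enough counts for a test and 1 passed as higher; their summed level was 6.47 to 33.0 CPM in ICAM1high and 1.77 to 13.1 CPM in ICAM1low. Of 10 plasmacytoid dendritic cell markers 4 were tested, with 2 higher and 2 lower. The summed level was 185 to 244 CPM in ICAM1high and 190.2 to 207 CPM in ICAM1low. Nearly all of that sum came from the 4 tested markers, Bst2, Runx2, Tcf4 and Ly6d. Each untested marker averaged under 1 CPM in both fractions, with Siglech at 0.158 CPM in ICAM1high and 0.138 CPM in ICAM1low. The summed level of macrophage and monocyte markers, given above, was higher in every ICAM1high library than in any ICAM1low library. The part of these cells in the levels of Tlr7 and Tlr9 was not tested. The 18 neutrophil markers, all lower in ICAM1high, had a median log2 fold change of -2.40. The part of neutrophil content in the falls of Cd14, Tlr1, Tlr2, Tlr4, Tlr6 and Tlr13 was not tested either.

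**Figure D2:**
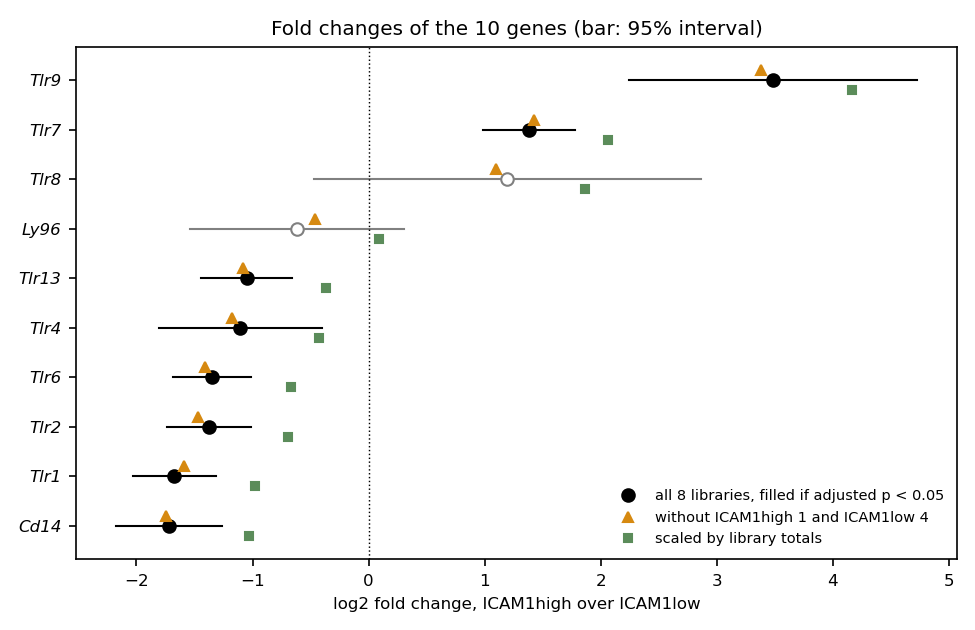
Log2 fold change of ICAM1high over ICAM1low for each gene from all 8 libraries (circle, with its 95% interval; filled and black where the adjusted p is under 0.05), without ICAM1high replicate 1 and ICAM1low replicate 4 (triangle), and with scaling by library totals (square). Tlr9 at 3.48 and Cd14 at -1.72 mark the ends of the range, and library totals move every gene toward higher values.

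Promoter sequence is shown for 4 of the receptors to set genes with different outcomes beside each other: Tlr9, which rose, Tlr8, which did not pass, and Tlr13 and Tlr2, which fell. Promoter windows from RefSeq (GRCm38.p6) were taken for 6 of the 10 genes, and Cd14 was left out of the search. Each runs from 250 bases before to 50 bases after the RefSeq start and is printed 5′ to 3′ on the strand of the gene. That start was 159 bases from the deposited gene start for Tlr2, 71 for Tlr13 and 0 for Tlr8 and Tlr9. Capitals mark matches, on either strand, to the core of PU.1 sites (GAGGAA), AP-1 (TGANTCA), NF-kB (GGGANNNNCC), the interferon response element ISRE (GAAANNGAAA) and C/EBP (TTGCNNAA). Among all 32851 promoter windows of this length, 28.3% held the first, 7.81% the AP-1 letters, 20.7% the NF-kB letters, 3.44% the ISRE letters and 10.8% the C/EBP letters.
Tlr9 promoter, chr9:106222348-106222647, plus strand: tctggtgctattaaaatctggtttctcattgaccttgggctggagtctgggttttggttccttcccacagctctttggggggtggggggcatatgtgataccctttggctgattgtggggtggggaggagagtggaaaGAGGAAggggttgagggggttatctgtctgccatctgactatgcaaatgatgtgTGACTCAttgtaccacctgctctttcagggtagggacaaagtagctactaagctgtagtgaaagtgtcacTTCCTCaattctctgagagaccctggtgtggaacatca
Tlr8 promoter, chrX:167264280-167264579, minus strand: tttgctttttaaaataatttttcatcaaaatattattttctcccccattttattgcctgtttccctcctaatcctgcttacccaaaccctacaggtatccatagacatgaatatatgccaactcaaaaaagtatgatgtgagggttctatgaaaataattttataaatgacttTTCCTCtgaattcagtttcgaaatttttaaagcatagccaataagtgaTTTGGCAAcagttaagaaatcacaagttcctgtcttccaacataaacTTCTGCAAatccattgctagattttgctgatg
Tlr13 promoter, chrX:106143025-106143324, plus strand: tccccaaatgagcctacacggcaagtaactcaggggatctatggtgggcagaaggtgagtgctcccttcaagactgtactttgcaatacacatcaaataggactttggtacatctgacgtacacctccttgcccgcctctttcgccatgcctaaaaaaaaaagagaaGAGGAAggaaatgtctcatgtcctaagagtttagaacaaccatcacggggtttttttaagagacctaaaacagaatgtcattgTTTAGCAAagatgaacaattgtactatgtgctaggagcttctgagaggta
Tlr2 promoter, chr3:83841559-83841858, minus strand: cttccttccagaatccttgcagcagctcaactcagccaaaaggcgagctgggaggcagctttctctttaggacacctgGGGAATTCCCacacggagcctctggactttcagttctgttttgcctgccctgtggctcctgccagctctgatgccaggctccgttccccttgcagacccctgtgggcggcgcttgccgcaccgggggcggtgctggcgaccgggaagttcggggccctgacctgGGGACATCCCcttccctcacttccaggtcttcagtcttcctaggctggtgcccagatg
The Tlr9 window held 2 PU.1 cores and 1 AP-1 match, and the Tlr8 window 1 PU.1 core and 2 C/EBP matches. The Tlr13 window held 1 PU.1 core and 1 C/EBP match. The Tlr2 window was the one of the 4 with NF-kB letters, at 2 places, with no match to the other motifs. The letters of ISRE were in none of the 4 windows. The windows of Tlr1 and Tlr6, which also fell, are not printed. That of Tlr1 held 1 PU.1 core and no other match, and that of Tlr6 held no match to any of the motifs. These are matches of letters, not measured binding, and no relation between them and the fold changes was tested.

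Levels of different genes were compared as CPM per kilobase of the deposited gene length. In ICAM1high the order ran from Cd14 at 3299.7 ± 566 through Tlr2 at 244 ± 35.9 and Tlr13 at 76.5 ± 12.8 (SD, n = 4), and these did not overlap with their neighbours in the order. Tlr4 at 17.9 ± 5.42, Tlr1 at 16.8 ± 2.83 and Tlr6 at 15.5 ± 2.11 CPM per kilobase overlapped from one to the next, as did Tlr7 at 8.44 ± 1.47, Tlr9 at 7.08 ± 2.93, Ly96 at 6.73 ± 2.71 and Tlr8 at 6.51 ± 3.37. In ICAM1low, Cd14 at 10862 ± 2445, Tlr2 at 634 ± 69.7 and Tlr13 at 159 ± 23.9 CPM per kilobase led again. Tlr1 at 53.6 ± 5.04 stood above Tlr6 at 39.6 ± 3.66, while Tlr4 at 38.5 ± 15.2 overlapped with both. Ly96 followed at 10.4 ± 6.43. Tlr7 at 3.23 ± 0.357, Tlr8 at 2.85 ± 2.19 and Tlr9 at 0.635 ± 0.433 closed the ICAM1low order, Tlr8 overlapping with Tlr7, Tlr9 and Ly96. Tlr9 held place 8 of 10 in ICAM1high and place 10 in ICAM1low, while Cd14, Tlr2 and Tlr13 held the first 3 places in both fractions.

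Ratios within a library do not depend on how libraries are scaled, and 6 pairs of genes that form one receptor or are close relatives were tested for a difference between the fractions. The test was an exact permutation of the 8 labels, two-sided, and cannot give a p below 0.0286. The log2 ratio of Tlr1 to Tlr6, per kilobase, was 0.11 ± 0.26 in ICAM1high and 0.44 ± 0.09 in ICAM1low (SD, n = 4), and the fractions did not overlap (exact permutation p = 0.0286, adjusted p = 0.171 over the 6 pairs). Per kilobase there were between 0.832 and 1.25 Tlr1 counts for each Tlr6 count in ICAM1high and between 1.27 and 1.47 in ICAM1low. The difference of -0.33 did not pass after adjustment and was -0.19 without ICAM1high replicate 1 and ICAM1low replicate 4, and both genes share sequence as described. The ratio of Tlr6 to Tlr2 was the most even, at -3.98 ± 0.11 in ICAM1high and -4.00 ± 0.16 in ICAM1low on the log2 scale (exact permutation p = 0.771).

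Cd14 exceeded Tlr4 per kilobase by 130- to 364-fold in ICAM1high and by 149.6- to 649-fold in ICAM1low. Their log2 ratio was 7.57 ± 0.66 in ICAM1high and 8.21 ± 0.90 in ICAM1low (SD, n = 4, exact permutation p = 0.314). Ly96 to Tlr4 was at -1.43 ± 0.92 in ICAM1high and -1.98 ± 1.37 in ICAM1low (exact permutation p = 0.486, n = 4), and Tlr8 to Tlr7 at -0.64 ± 0.96 in ICAM1high and -0.99 ± 2.25 in ICAM1low (exact permutation p = 0.83, n = 4). In these 3 ratios ICAM1high replicate 1 and ICAM1low replicate 4 were each the highest library of their fraction for Cd14 and Ly96 to Tlr4 and the lowest for Tlr8 to Tlr7. Without both, the differences of ICAM1high minus ICAM1low were -0.58 for Cd14 to Tlr4, 0.73 for Ly96 to Tlr4 and -0.26 for Tlr8 to Tlr7. Tlr1 to Tlr2 was at -3.86 ± 0.28 in ICAM1high and -3.56 ± 0.23 in ICAM1low (exact permutation p = 0.171, n = 4). Adjusted over the 6 pairs, the p-values ran from 0.171 to 0.83, so 0 of 6 ratios passed, 1 of them with an unadjusted p under 0.05. With 4 libraries a fraction, 1 fully separated pair cannot go below an adjusted p of 0.171, and at least 4 of the 6 pairs would have to separate fully for any to pass, so these tests say little about the ratios that did not.

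**Figure D3:**
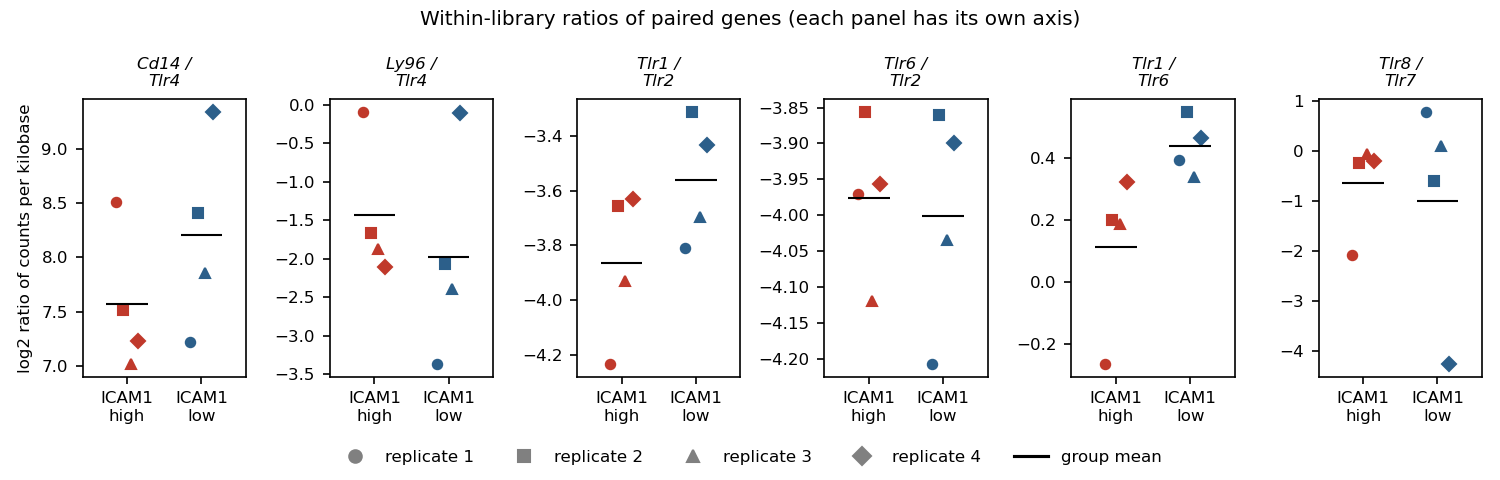
Log2 ratio of counts per kilobase of the first gene over the second within each library, for 6 pairs, ICAM1high (red) left of ICAM1low (blue), with a marker shape per replicate and a line at the mean; each panel has its own axis, which does not start at 0. Only Tlr1 over Tlr6 separates the fractions, and replicate 1 of ICAM1high and replicate 4 of ICAM1low stand apart for Tlr8 over Tlr7.

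The remaining mouse Toll-like receptors were counted at low levels. Tlr12, a mouse receptor for a protozoan actin-binding protein, held 347, 198, 250 and 138 counts in ICAM1high replicates 1 to 4 and 1, 7, 6 and 0 counts in ICAM1low replicates 1 to 4. The fractions were far apart, and Tlr12 rose by 5.65 on the log2 scale (SE 0.56, adjusted p = 4.64e-05). Tlr3, the sensor of double-stranded RNA, rose by 1.30 (SE 0.22, adjusted p = 0.00121), at 8.47 ± 0.967 CPM in ICAM1high and 3.43 ± 0.619 CPM in ICAM1low (SD, n = 4). In replicates 1 and 2 alone Tlr3 did not pass. Tlr5, the flagellin receptor, was at 5.86 ± 2.08 CPM in ICAM1high and 6.79 ± 2.27 CPM in ICAM1low and did not pass (-0.21, adjusted p = 0.653). Tlr11 held 1 to 16 counts in ICAM1high and 0 in every ICAM1low library and was too low for a test.

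Genes for folding, transport and processing of Toll-like receptors or their ligands, which include general chaperones, were counted next: of 15 tested, 9 rose, 1 fell and 5 did not pass, where 22.6% of all genes rose and 19.6% fell. Their median log2 fold change was 0.84, against 0.08 over all genes. Under library totals 13 rose and 1 fell. Pld4, an endosomal exonuclease that degrades TLR9 ligands, was at 228 ± 36.7 CPM in ICAM1high and 13.7 ± 1.94 CPM in ICAM1low (SD, n = 4), a rise of 4.06 (SE 0.19, adjusted p = 1.04e-06). Lgmn, an asparagine endopeptidase that can cleave TLR9, rose by 3.25 (SE 0.18, adjusted p = 1.58e-06), and Pld3, a relative of Pld4, by 2.25 (SE 0.19, adjusted p = 1.85e-05). The member that fell, named after its value was seen, was Slc15a3, an endolysosomal peptide transporter, at -1.74. Unc93b1, the chaperone that carries the endosomal receptors out of the endoplasmic reticulum and also named after its value was seen, rose by 0.84 (SE 0.15, adjusted p = 0.00166).

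Accessory proteins moved both ways, with 2 of 9 higher, 4 lower and 3 that did not pass, and a median of -0.75. Among all genes 22.6% were higher and 19.6% lower. Under library totals 4 of the accessory genes rose and 3 fell. Cd180 and Ly86 encode a receptor related to TLR4 and its partner, which resembles MD-2. Cd180 was at 29.0 ± 4.43 CPM in ICAM1high and 1.72 ± 0.624 CPM in ICAM1low (SD, n = 4), and rose by 4.08 (SE 0.28, adjusted p = 5.02e-06). Ly86 rose by 3.81 (SE 0.29, adjusted p = 1.01e-05), whereas Ly96, its relative, did not pass. S100a9, a subunit of calprotectin that is reported as a TLR4 ligand and is also in the neutrophil marker list, fell by 3.00 (SE 0.39, adjusted p = 0.000235). The other 3 that fell, named after their values were seen, were S100a8, the second calprotectin subunit, at -3.13, Lbp, the lipopolysaccharide-binding protein of serum, at -1.28, and Itgam, the integrin chain CD11b, at -0.75.

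Of 20 adaptors and proximal kinases tested, 4 rose, 5 fell and 11 did not pass, near the shares over all genes of 22.6% higher and 19.6% lower, and the median was -0.11. Leaving out ICAM1high replicate 2 or 3, or ICAM1low replicate 2 or 3, gave 2 higher and 3 lower, and leaving out replicate 1 of either fraction gave 3 lower. Myd88, the shared adaptor, was at 244 ± 60.3 CPM in ICAM1high and 515 ± 82.0 CPM in ICAM1low (SD, n = 4), or -1.08 on the log2 scale (SE 0.20, adjusted p = 0.00169), and Irak2, a kinase of the same complex, was at -1.02 (SE 0.15, adjusted p = 0.000515). Under library totals they were at -0.39 (adjusted p = 0.0636) and -0.33 (adjusted p = 0.0755). Ikbke, a kinase that acts on interferon regulatory factors, rose by 1.71 (SE 0.31, adjusted p = 0.0016). Of the members named after their values were seen, the adaptors Ticam2 and Ticam1 and the kinase Irak1 rose by 2.68, 0.83 and 0.65. The adaptor Tirap, which brings MyD88 to TLR2 and TLR4, was at -1.25, and the kinases Tbk1 and Irak4 were at -0.55 and -0.43. Under library totals 10 members of this list rose and 0 fell.

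Negative regulators numbered 2 that rose, 6 that fell and 7 that did not pass of 15 tested, with a median of -0.37. The shares over all genes were 22.6% higher and 19.6% lower. Tnip3, a partner of the deubiquitinase A20, was at 9.32 ± 1.02 CPM in ICAM1high and 0.466 ± 0.230 CPM in ICAM1low (SD, n = 4) and rose by 4.29 (SE 0.36, adjusted p = 1.57e-05). Nfkbia, the NF-kB inhibitor that NF-kB itself induces, was at -1.03 (SE 0.17, adjusted p = 0.00102), and Irak3, an inhibitory IRAK, at -1.0 (SE 0.22, adjusted p = 0.00431). Under library totals 4 members rose and 0 fell, and Nfkbia and Irak3 were at -0.35 (adjusted p = 0.0518) and -0.30 (adjusted p = 0.225).

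Transcription factors that act after Toll-like receptors fell in 10 of 15 cases and rose in 1, with 4 that did not pass and a median of -0.91. Of all genes tested 19.6% fell and 22.6% rose. Irf8, which is known from macrophages and dendritic cells, was the member that rose, at 95.4 ± 15.3 CPM in ICAM1high and 6.64 ± 1.26 CPM in ICAM1low (SD, n = 4), by 3.84 (SE 0.21, adjusted p = 1.28e-06). Cebpb fell by 2.14 (SE 0.30, adjusted p = 0.000366) and Fos, an AP-1 subunit, by 1.31 (SE 0.15, adjusted p = 8.87e-05). Under library totals 2 rose and 3 fell.

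Transcripts that Toll-like receptor ligands are known to induce were mixed: of 25 tested, 7 rose, 8 fell and 10 did not pass, with a median of -0.25. All genes tested gave 22.6% higher and 19.6% lower, with a median of 0.08. Under library totals 11 of the induced transcripts rose and 6 fell. Cxcl3, a neutrophil attractant, fell by 2.99 (SE 0.23, adjusted p = 9.28e-06), and Acod1, which makes itaconate, by 2.05 (SE 0.20, adjusted p = 3.72e-05). Cd86, a co-stimulatory ligand, rose by 1.90 (SE 0.16, adjusted p = 1.79e-05), at 58.1 ± 2.23 CPM in ICAM1high and 15.6 ± 2.69 CPM in ICAM1low (SD, n = 4). Macrophage and neutrophil markers differed between the same fractions, as given above. Of 10 epithelial tumour cell markers 8 were tested, 5 fell and 0 rose, and their summed level was 119 to 172 CPM in ICAM1high and 272 to 475 CPM in ICAM1low. The part of these cells in the lists was not tested.

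**Figure D4:**
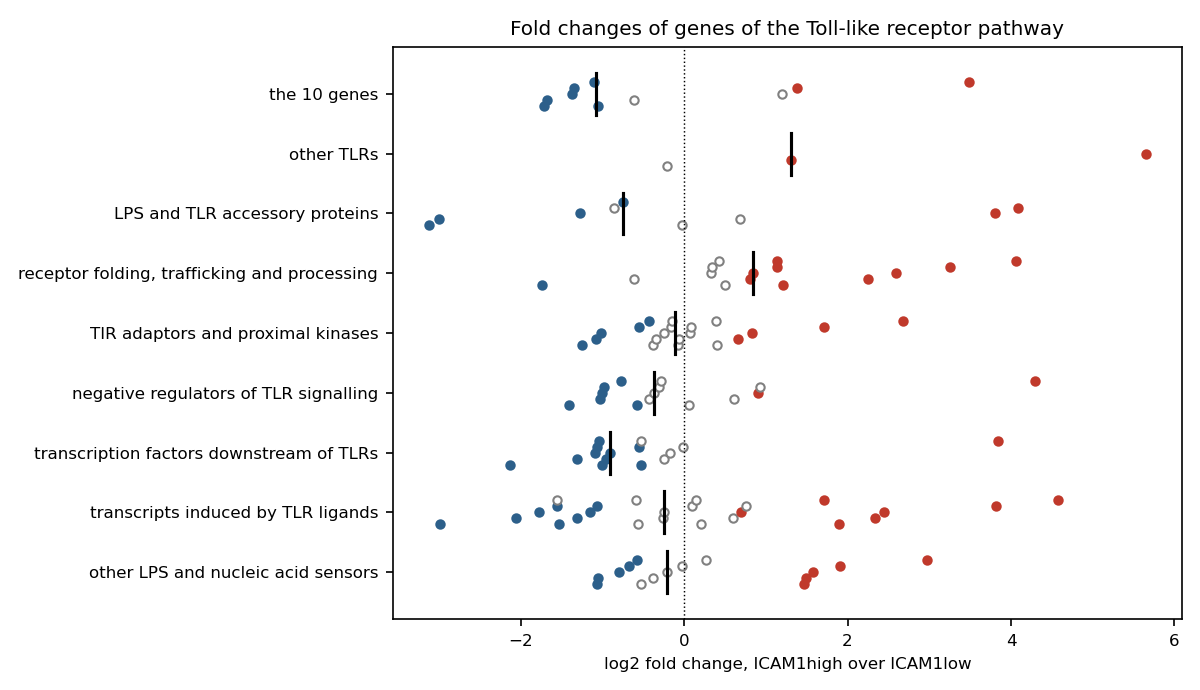
Log2 fold change of ICAM1high over ICAM1low for each tested gene (circles) of the 10 genes and of 8 lists of related genes, with a black bar at the list median. Filled circles have an adjusted p under 0.05 (red higher, blue lower in ICAM1high); folding, trafficking and processing genes have a median of 0.84 and downstream transcription factors one of -0.91.

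**Figure D5:**
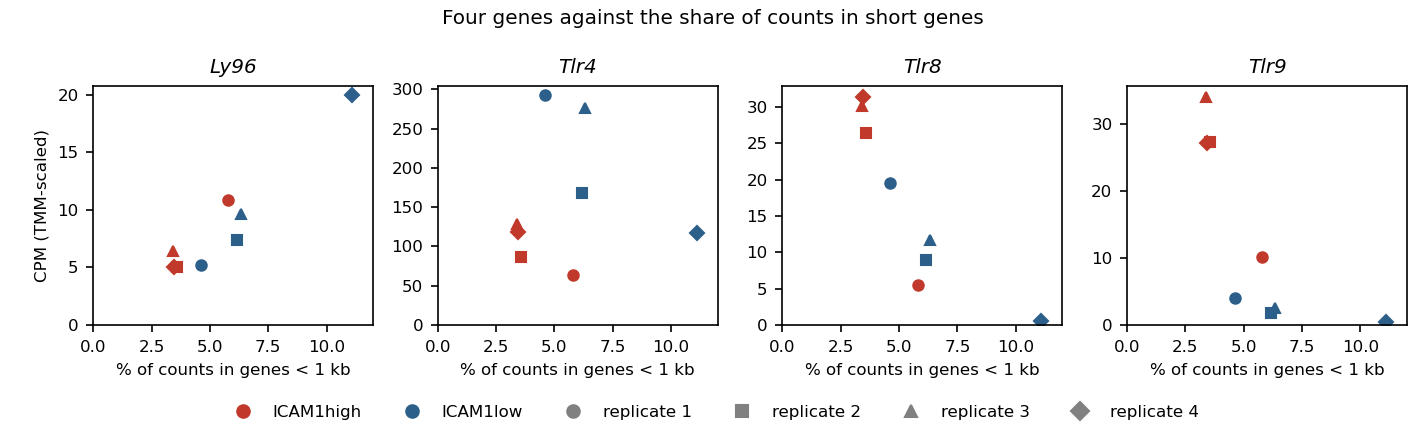
CPM of 4 genes (vertical axis, from 0) against the percentage of each library's counts in genes shorter than 1000 bases, for ICAM1high (red) and ICAM1low (blue), with a marker shape per replicate. ICAM1low replicate 4, at 11.1%, has the highest Ly96 and the lowest Tlr8 and Tlr9 of all libraries, and ICAM1high replicate 1, at 5.79%, has the highest Ly96 and the lowest Tlr4, Tlr8 and Tlr9 of its fraction.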

How the data were processed

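RNA of 8 libraries, each made from 100 ng of total RNA, was sequenced after mRNA library preparation, per the labels' protocols. The authors deposited one table of read counts per gene, whole numbers without normalization, and a gene length in bases (an other quantity), used here for levels per kilobase. HISAT2 and the build mm10 appear in the submitters' processing notes. The sources used here do not give the version, counting tool, annotation, strand setting or filters. Totals of 10328575 to 22751975 counts set the precision of low values.

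Genes were filtered with filterByExpr by group, which left 14051, scaled by TMM and tested in R 4.3.3 by edgeR 4.0.16 (quasi-likelihood F test), with Benjamini-Hochberg adjustment over all genes tested. The fit was checked on simulated data in which few genes changed, up or down at random. That check does not test the scaling between fractions that differ as widely as these. Fold changes are ICAM1high over ICAM1low, and each SE was taken from the fold change and F. The labels call the replicates biological without tying each to a mouse, so p-values speak for these samples alone. The ICAM1high and ICAM1low library names of a replicate carry the same number. That number may mark a shared tumour, but the labels do not say so. The main fit was unpaired, and a fit with a replicate block is given as an alternative. Replicates differed by more than sampling noise, with a chi-square of 11.4 to 198 for each degree of freedom. Alternatives were DESeq2 1.42.0, limma-voom (limma 3.58.1), other scalings, filters, a robust fit, a replicate block, subsets by replicate number and each library left out. List genes were named as the 3 with the smallest p among those whose average log2 CPM reached 1; others are marked as named after their values were seen. The genes and lists were chosen with earlier results of these data known. None of the 10 genes overlaps another gene of the table. GENCODE M21 supplied exons and transcripts, and 9 of the 10 genes have the same position there.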

Additional observations from a re-analysis of the deposited data

Results flagged for a closer look

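Across 32 sets of 4 libraries examined, the 10 genes and the 6 ratios in each fraction, 1 value stood far from the others of its fraction; chance marks about 1 set in 20. The log2 ratio of Tlr8 to Tlr7 in ICAM1high replicate 1 was -2.07, against -0.24 to -0.05 in the other 3 ICAM1high libraries. Its gap to the nearest library was 0.909 of the range of the fraction, above the 95% limit of Dixon's test for 4 values. This library held 133 counts of Tlr8 and 636 of Tlr7, and 5.79% of its counts were in genes shorter than 1000 bases, where the other ICAM1high libraries held 3.41 to 3.57%. The part of that share in the ratio was not tested.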

How the results depend on the processing

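Over 21 alternatives each, Cd14, Tlr1, Tlr2, Tlr6, Tlr7 and Tlr9 kept their direction and passed in all 21, Tlr13 in 20 (not under library totals), Tlr4 in 17, Tlr8 in 1 and Ly96 in 0. Ly96 turned to 0.093 under library totals and to 0.34 in replicates 1 and 2 alone, and Tlr5 to 0.47 under library totals and to 0.15 in replicates 3 and 4 alone; neither gene passed in any of these. With one library left out, 7 to 8 of the 10 genes were called, the lost gene being Tlr4 without ICAM1low replicate 3, and 4502 to 6287 of all genes. Under library totals 6818 genes were higher and 839 lower, so 89.0% of calls were higher, against 53.6% with TMM. Genes called numbered 3124 in replicates 1 and 2 alone (1708 higher, 1416 lower) and 3262 in replicates 3 and 4 alone (1658 higher, 1604 lower), with fewer samples. Of the named list genes, Tlr3, Myd88 and Nfkbia no longer passed in replicates 1 and 2 alone. Same-numbered libraries also share a number in their library names but are not stated to be paired. Their deviations from the group means correlated at -0.57, 0.21, 0.18 and -0.30 for replicates 1 to 4. A replicate block gave 2263 higher and 1975 lower genes and, of the 10 genes, Tlr4 no longer passed (-1.06, adjusted p = 0.0658). Pseudocounts of 0.5 and 5 changed no call among the 6 ratios. That says little, because at least 4 of the 6 pairs would have to separate fully for any to pass. With a library left out, Tlr8 to Tlr7 ran from -0.74 to 0.94 and Tlr6 to Tlr2 from -0.04 to 0.07. Without both ICAM1high replicate 1 and ICAM1low replicate 4, a choice made after seeing the data, the ratio differences were -0.13 for Tlr1 to Tlr2 and 0.057 for Tlr6 to Tlr2. Causes were not tested. In ICAM1low replicate 4, the library with the largest total, Tlr8 and Tlr9 rest on 9 and 7 counts.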

Other observations

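Other sensors of lipopolysaccharide and nucleic acids, outside the Toll-like family, were divided as well: of 15 tested, 5 rose, 5 fell and 5 did not pass, with a median log2 fold change of -0.21. Over all genes tested the shares were 22.6% higher and 19.6% lower. Tmem173, which encodes the adaptor STING, was at 41.8 ± 12.3 CPM in ICAM1high and 11.2 ± 1.48 CPM in ICAM1low (SD, n = 4), and rose by 1.90 (SE 0.22, edgeR adjusted p = 0.000134). Mb21d1, which encodes the DNA sensor cGAS, rose by 1.49 (SE 0.24, edgeR adjusted p = 0.00075), and Nlrc4, an inflammasome subunit, by 2.98 (SE 0.42, edgeR adjusted p = 0.000378). Named after their values were seen, Mavs and Naip5 also rose, by 1.57 and 1.47. The 5 that fell, named in the same way, were Nlrp3 at -1.06, Casp4 at -1.05, Nod2 at -0.80, Ddx58 at -0.68 and Nod1 at -0.58. Under library totals 8 of these genes rose and 0 fell.

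The genes whose profile over the 8 libraries was closest to each receptor were found among 10436 genes as those with the smallest root-mean-square difference of centred log2 CPM. Tpd52 was closest to Tlr6, at a difference of 0.0428. Tlr6 and Tlr2 were the closest pair among the 10 genes, at 0.118. A search over 10436 genes finds smaller distances than one over 10, so these values are not compared. Ccng2 was closest to Tlr1 (0.0944), Parp10 to Tlr2 (0.0788), Nab1 to Tlr13 (0.0729) and Map3k5 to Tlr4 (0.131). Selplg was closest to Cd14 (0.0922), Abl1 to Tlr7 (0.116) and Dynlt1b to Ly96 (0.145). Tlr8 and Tlr9 had no gene as near, with Rbm41 at 0.221 and Arhgap22 at 0.329. These distances are descriptions over 8 libraries in which the fractions differ widely.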
